A study of Mus musculus with 62 samples.

Results

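The 37 genes described here encode lysosomal enzymes, lysosomal membrane proteins and parts of the lysosomal proton pump of the mouse. They were listed by name, by a rule that names no measured value but was written with earlier results of these data known. Each was found as 1 row among the 53801 genes of the deposited raw count matrix. By role they comprised 8 glycosidases, 3 sulfatases, 7 proteins that handle lipids, 4 genes known from the neuronal ceroid lipofuscinoses, 6 membrane proteins, 1 transcriptional regulator and 8 subunits or partners of the vacuolar proton ATPase (v-ATPase). All 37 were among the 19881 genes with enough counts to be tested.

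RNA was sequenced from CD11b+ cells, a surface marker of microglia and other myeloid cells, in 62 libraries of 16 groups with 3 to 5 libraries each. The groups crossed 4 genotypes with 3 ages and a second set at the oldest age. The genotypes were wild-type mice, NLRP3-/- mice that lack the inflammasome sensor Nlrp3, APP/PS1 mice that carry the amyloid transgenes and have Nlrp3, and APP/PS1.NLRP3-/- mice that carry the transgenes and lack Nlrp3. The ages were 4, 6 and 12 months, written 4m, 6m and 12m. The second set at 12m carried the tag Mxo4 in its titles, which the labels do not spell out, and it was kept as 4 groups of its own. The labels name neither the promoter that drives the transgenes, nor the sex of the mice, nor whether each library came from a separate animal, so that the p-values speak only for the spread among these libraries, which may be technical.

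Lysosomes break down proteins, sugars and lipids that reach them by phagocytosis, endocytosis and autophagy. Their soluble hydrolases need an acidic lumen, which the v-ATPase provides by pumping protons with a cytosolic V1 sector that splits ATP and a membrane V0 sector that conducts the protons. Microglia, the resident phagocytes of the brain, are rich in lysosomal proteins, and many lysosomal genes are known to be controlled by the transcription factor TFEB through promoter elements of the CLEAR type, whose core is a palindromic E-box.

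The CLEAR core was looked for in the promoters of the members, since it is the sequence by which TFEB is known to act on such genes. RefSeq promoter windows of the build GRCm38.p6, from 250 bases before to 50 bases after the annotated start, were at hand for 31 of the 37 members. The motif TCACGTG, or CACGTGA on the other strand, was present in 9 of these 31 members. Some members had more than 1 window. Counted by window, the motif was in 9 of their 37 windows and in 3.77% of all 32851 windows. Every member with the shorter palindrome CACGTG, found in 7.15% of all windows, also had the longer motif. The 9 members were Atp6v0d1, Atp6v1a, Cln3, Gaa, Gla, Glb1, Lamp1, Mcoln1 and Naglu. Lamp1 had 4 sites just before its start, Mcoln1, Cln3 and Gla had 2 each and the others, Glb1 among them, had 1 each. The windows of 3 members were picked by outcome. From 6m on, Lamp1 and Glb1 were higher in all 6 transgene comparisons below, and Mcoln1 was called in none. The 3 windows follow 5′ to 3′ on the gene's strand, with the motif in capitals.
Lamp1, chr8:13158911-13159210 (+): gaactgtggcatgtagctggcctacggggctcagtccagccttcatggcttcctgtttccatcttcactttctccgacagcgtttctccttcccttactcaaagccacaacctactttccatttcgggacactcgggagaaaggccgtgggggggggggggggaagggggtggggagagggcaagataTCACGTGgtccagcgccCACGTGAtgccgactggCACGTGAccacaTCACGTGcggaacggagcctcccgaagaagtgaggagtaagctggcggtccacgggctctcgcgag
Glb1, chr9:114400828-114401127 (+): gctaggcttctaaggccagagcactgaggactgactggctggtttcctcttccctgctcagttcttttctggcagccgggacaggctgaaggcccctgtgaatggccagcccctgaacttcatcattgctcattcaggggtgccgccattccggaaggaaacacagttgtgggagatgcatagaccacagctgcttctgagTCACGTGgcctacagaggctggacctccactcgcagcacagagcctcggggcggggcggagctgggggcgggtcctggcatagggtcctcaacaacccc
Mcoln1, chr8:3500269-3500568 (+): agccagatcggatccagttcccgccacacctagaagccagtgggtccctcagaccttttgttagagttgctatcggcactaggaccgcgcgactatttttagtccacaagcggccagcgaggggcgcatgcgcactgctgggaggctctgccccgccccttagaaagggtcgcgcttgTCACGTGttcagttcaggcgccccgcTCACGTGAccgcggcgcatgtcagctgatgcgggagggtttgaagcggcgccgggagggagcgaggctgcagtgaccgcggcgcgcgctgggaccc
A match of letters is a description and no evidence that a factor binds.

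Depth was even across most libraries, with a median of 18392142 counts and a maximum of 27604393. APP/PS1 6m replicate 21 held 659 counts and was left out of all fits, which leaves 61 libraries, 3 of them in the APP/PS1 6m group. The lowest of those fitted were NLRP3-/- 12m replicate 45 with 1394435 counts and APP/PS1 12m replicate 41 with 6187249. Nlrp3 stood at 60.1 to 234 CPM, a count scaled to a common library total, in the 30 fitted libraries labelled as having it and at 0 to 2.16 CPM in the 31 labelled as lacking it. Summed levels of 8 microglial markers ranged from 31999 to 47391 CPM, and none of the 8 was at 0 in any group. Summed monocyte and neutrophil markers reached 243 and 2364 CPM in APP/PS1 12m replicate 38, against at most 44.3 and 223 CPM in the wild-type 12m libraries. Neutrophil sums ran from 119 to 1132 CPM in NLRP3-/- 12m and from 56.9 to 348 CPM in APP/PS1.NLRP3-/- 12m libraries. Summed choroid plexus and ependyma markers reached 4761 CPM in NLRP3-/- 6m and 4569 CPM in APP/PS1.NLRP3-/- 6m libraries. The part of these markers in the results was not tested. Xist and 4 Y-linked transcripts gave 42 libraries as female and 19 as male. The wild-type and APP/PS1 12m groups were all female, and the NLRP3-/- and APP/PS1.NLRP3-/- 12m groups all male. At 6m wild-type and APP/PS1 were all female, NLRP3-/- had 3 female and 1 male, and APP/PS1.NLRP3-/- 2 female and 3 male. At 12m Mxo4 there were 2 female and 1 male in wild-type and 1 female and 2 male in NLRP3-/-. APP/PS1 had 1 female and 3 male there, and APP/PS1.NLRP3-/- 2 female and 1 male. APP/PS1 12m Mxo4 replicate 56 stood apart from its group, with 10.3 CPM of the amyloid-response gene Cst7 where the other 3 held 1448 to 2170 CPM. The comparison of APP/PS1 with wild-type at 12m Mxo4 is given below with and without replicate 56. In that comparison the SE of Glb1 was 0.18 with it and 0.11 without it. All groups share 1 estimate of the spread per gene, so this library enters the SE of the other comparisons too. Those that do not hold its group, among them all at 4m, 6m and untagged 12m, were not tested again without it. Replicate numbers are those of the titles, each used once in the series.

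The members differed widely in level in the 30 libraries without the transgenes. On the scale of mean CPM per kilobase of annotated exon, Psap, the precursor of the saposins that present lipids to hydrolases, was the highest at 658, followed by the macrophage membrane glycoprotein Cd68 at 608, Lamp1 at 513, the β-hexosaminidase α subunit Hexa at 459 and progranulin, Grn, at 404. At the low end, Tfeb stood at 5.32, the α-galactosidase Gla at 3.46 and Atp6v0d2, a v-ATPase d subunit best known from osteoclasts, at 0.0831. The order between neighbours was not tested. Summed over the 37 members, the level was 14467 ± 877 CPM (SD, n = 3) in wild-type 12m and 24904 ± 2811 CPM (n = 5) in APP/PS1 12m libraries, with 14433 ± 1256 (n = 4) in NLRP3-/- 12m and 23335 ± 2501 (n = 4) in APP/PS1.NLRP3-/- 12m. At 4m the 4 genotypes lay between group means of 13912 and 15210 CPM. In bulk RNA, fewer cells of a type and less RNA per cell cannot be told apart.

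**Figure D1:**
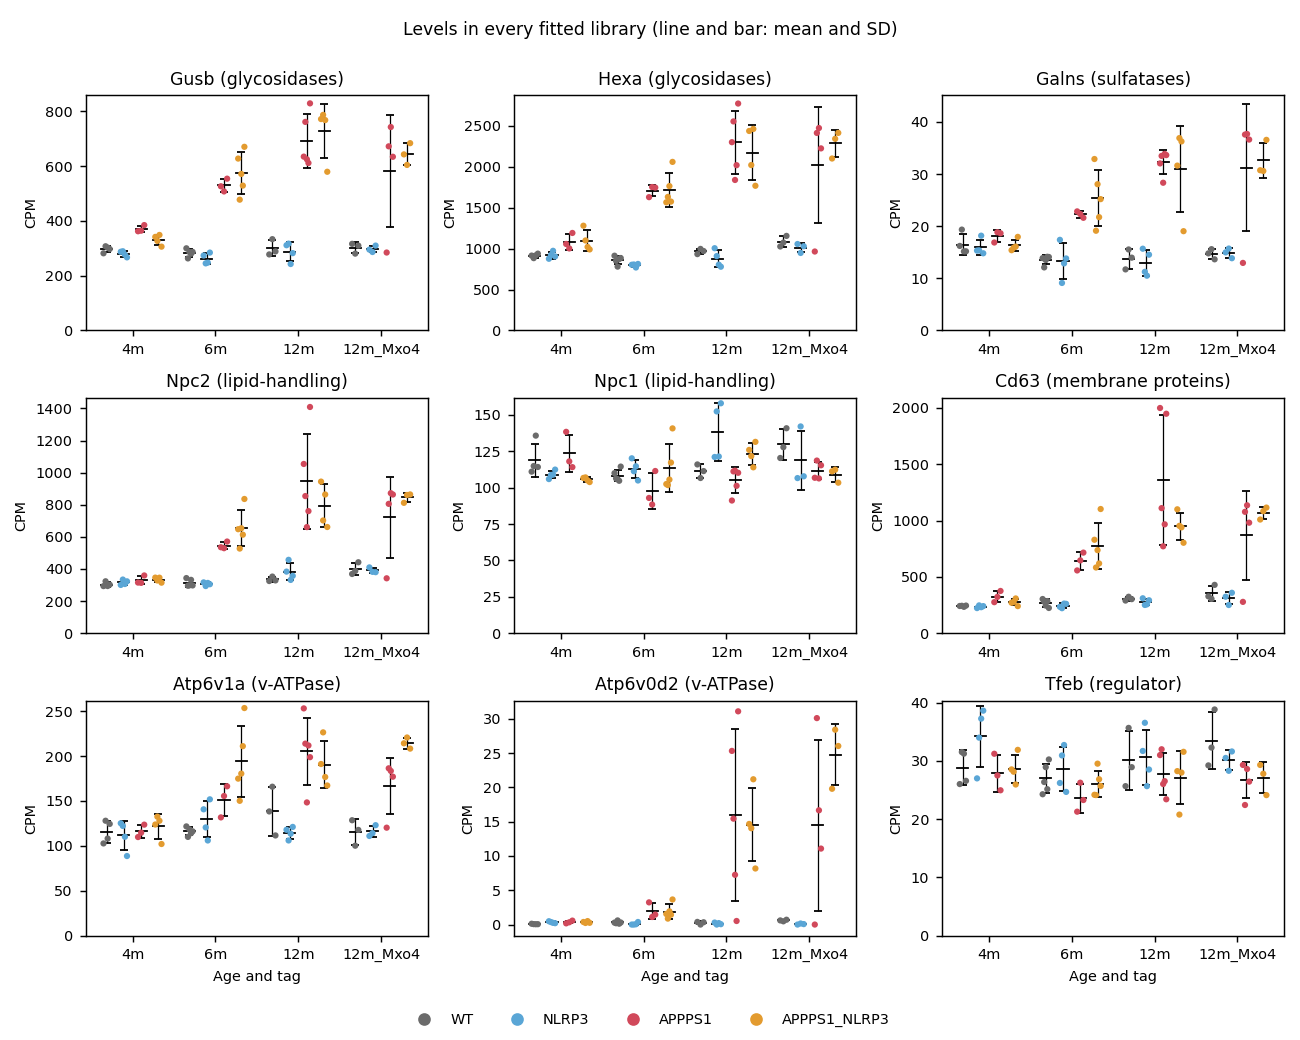
Level of 9 members in every fitted library (y axis, CPM; x axis, the 4 times), coloured by genotype. The transgenic libraries separate from the others at 6m and later for Gusb, Hexa, Galns, Npc2 and Cd63. At 4m those of Gusb and Hexa already separate, with and without Nlrp3. The low transgenic point at 12m Mxo4 is replicate 56. Npc1 and Tfeb overlap, apart from Npc1 at 12m Mxo4 with Nlrp3. There APP/PS1 libraries lie at 106 to 119 CPM, below the wild-type ones at 120 to 141 CPM.

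From 6m on, most members were called higher in mice with the amyloid transgenes in at least 1 comparison. The median difference of the glycosidases was above that of each other class at each of these times, a gap between classes that was not tested. With Nlrp3, in APP/PS1 minus wild-type libraries, no member was called at 4m, 17 were higher at 6m, 27 at 12m and 16 at 12m Mxo4 (edgeR's quasi-likelihood test, two-sided, called where the Benjamini-Hochberg adjusted p was under 0.05). Of all genes tested, 0.0251% were called higher at 4m, 2.1% at 6m, 11.5% at 12m and 3.38% at 12m Mxo4. Without Nlrp3, in APP/PS1.NLRP3-/- minus NLRP3-/- libraries, 0, 26, 25 and 22 members were higher, where 0.0101%, 6.24%, 5.78% and 3.55% of all genes were. No member was called lower in any of these 8 comparisons. The lack of calls at 4m does not mean that no levels were apart. Gusb stood at 282 to 307 CPM in wild-type and 362 to 385 CPM in APP/PS1 4m libraries. Without Nlrp3 it stood at 267 to 289 CPM and, with the transgenes, at 306 to 349 CPM. Hexa was apart in both pairs as well. The share of all genes that were apart at 4m was not counted. At 4m, 1 member with Nlrp3 and 2 without it had an unadjusted p under 0.05 in edgeR's test, and DESeq2 called 0 in both. The 3 smallest p belonged to Gusb at 0.32, Cd68 at 0.36 and Lipa at 0.22 (adjusted p = 1 for each) with Nlrp3 and to Mcoln1 at 0.22, Tfeb at -0.26 and Hexa at 0.26 (adjusted p = 1 for each) without it. At 12m the median log2 difference of the members was 0.61 with Nlrp3 and 0.62 without it, beside -0.068 and -0.041 for all genes tested. Called over all 6 comparisons from 6m on were 13 members, 16 were called in 1 to 5 of them and 8 in none. No v-ATPase subunit was among the 13. The share of all genes called in all 6 was not counted, so these counts have no background beside them. With replicate 56 left out, Grn, Lamp2 and the subunit Atp6v1b2 were called in all 6 as well.

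In 22 of the 37 members at 6m with Nlrp3, all APP/PS1 libraries lay above all wild-type ones, as they did in 8.29% of all genes. At 12m this held for 21 of the 37, beside 8.09%. At 12m Mxo4, with replicate 56 in the APP/PS1 group, it held for 3 of the 37, beside 4.31%. Left without that library, the comparison called 22 members, 7 of them glycosidases and 4 v-ATPase subunits, and 12.7% of all genes in either direction. The 6 members called in addition were Man2b1 at 0.50, Tpp1 at 0.35, Grn at 0.64, Lamp2 at 0.60, Atp6v1b2 at 0.46 and Atp6ap1 at 0.42 (adjusted p from 0.0015 to 0.022). Without it the class medians there were 1.12 for glycosidases, 0.27 for lipid-handling members, 0.50 for the ceroid lipofuscinosis genes, 0.65 for membrane proteins and 0.32 for v-ATPase subunits. Without Nlrp3 the transgenic libraries were all higher for 24, 26 and 29 of the 37 members at 6m, 12m and 12m Mxo4, beside 6.96%, 7.09% and 12.9% of all genes. At 6m with Nlrp3 the count of 17 fell to 10 without APP/PS1 replicate 24 and to 8 with a term for the first title number. Without APP/PS1 replicate 38, the library with the raised monocyte and neutrophil markers, 27 members were called at 12m. With each library left out in turn, 9 of the 17, 21 of the 27 and 12 of the 16 calls with Nlrp3 held throughout. Without Nlrp3, 22 of the 26, 23 of the 25 and 17 of the 22 did. The other settings ended further calls, except at 12m Mxo4 without Nlrp3. Within libraries whose second title number is 1, the counts with Nlrp3 were 6, 15 and 22 at 6m, 12m and 12m Mxo4. Within those whose number is 2 they were 17, 27 and 0, the last with replicate 56 as its 1 APP/PS1 library. Without Nlrp3 they were 20 and 24 at 6m and 12m where the number is 1, and 18, 12 and 22 at 6m, 12m and 12m Mxo4 where it is 2. At 12m Mxo4 no APP/PS1.NLRP3-/- library has the number 1. Several of these arms hold 1 fitted library, among them wild-type 12m and APP/PS1 6m where the number is 1, and wild-type 12m Mxo4 and NLRP3-/- 12m where it is 2, and such a library is assumed to vary like the other groups. What the number stands for is not stated.

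**Figure D2:**
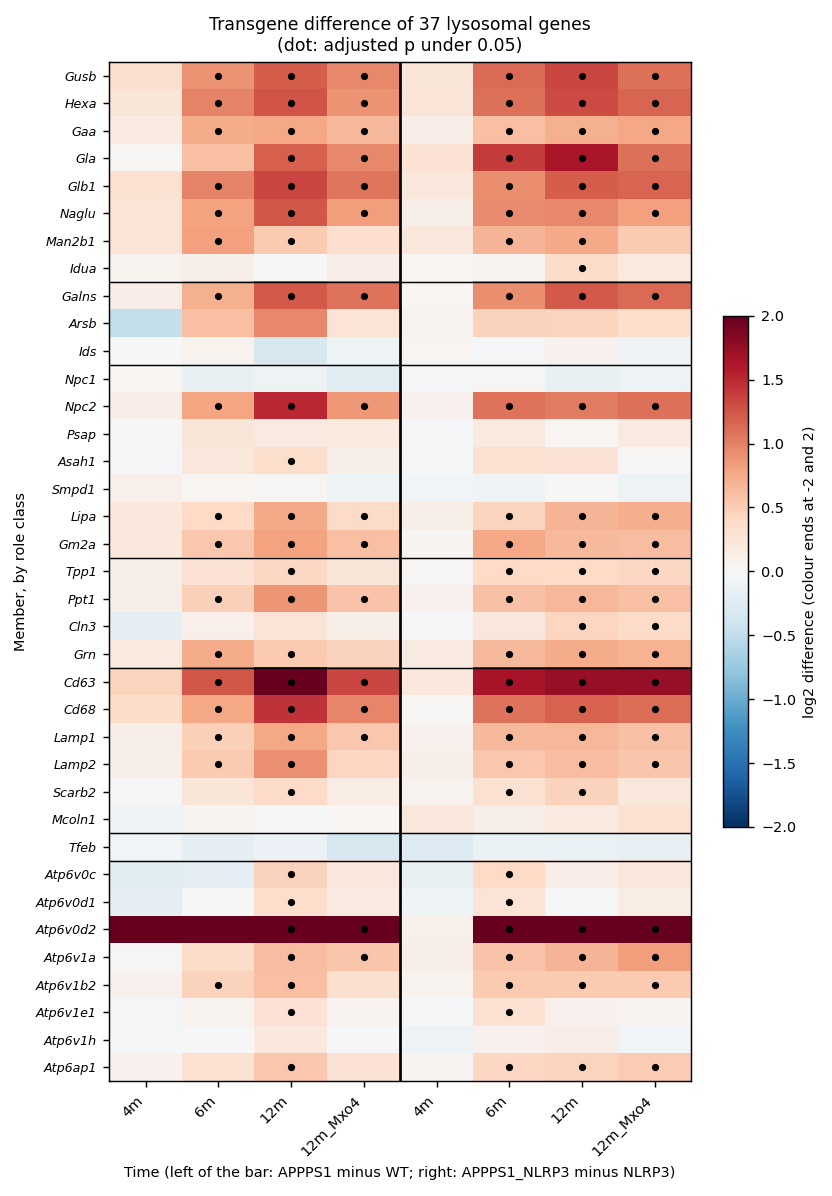
Log2 difference of each of the 37 members (rows, ordered by role) in the 8 comparisons of transgenic with non-transgenic libraries (columns), with a dot where the member was called and the colour scale ending at ±2. Dots are absent at 4m and fill most of the glycosidase rows from 6m on; no dot marks a lower level.

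Glycosidases remove sugars from glycans and glycolipids, and they were the class with the largest median difference. Of the 8, 6 were higher in APP/PS1 than in wild-type libraries at 6m, 7 at 12m and 6 at 12m Mxo4, and 7, 8 and 6 without Nlrp3. Their median log2 difference was 0.81, 1.20 and 0.87 with Nlrp3 and 0.94, 1.08 and 0.96 without it. Gusb, Hexa, Gaa, Glb1 and Naglu were called in all 6 comparisons.

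Gusb, the β-glucuronidase that acts on glycosaminoglycans, stood at 277, 333 and 288 in wild-type and 634, 761, 625, 611 and 829 in APP/PS1 12m libraries, in CPM. Without Nlrp3 it stood at 311, 317, 242 and 282 in NLRP3-/- and 772, 787, 768 and 579 in APP/PS1.NLRP3-/- 12m libraries. In both pairs every transgenic library lay above every library without the transgenes. The log2 differences were 1.21 ± 0.15 (SE; adjusted p = 4.3e-08, 2.32-fold) and 1.33 ± 0.14 (adjusted p = 7.5e-09). At 6m the values were 299.8, 263, 286, 279.9 and 287 in wild-type and 526, 507 and 554 in APP/PS1. Without Nlrp3 they were 274, 245, 248 and 284 in NLRP3-/- and 627, 477, 571, 529 and 670.2 in APP/PS1.NLRP3-/-, with differences of 0.90 ± 0.14 and 1.13 ± 0.13 (adjusted p = 2e-05 and 5.9e-08). The groups did not overlap at 6m either. At 12m Mxo4 Gusb stood at 316, 280.4 and 309.6 in wild-type and 284, 672, 742 and 634 in APP/PS1, where replicate 56 is the first of the APP/PS1 values and lies among the wild-type ones. The difference was 0.95 ± 0.15 (adjusted p = 3.5e-05) with that library and 1.21, adjusted p = 1.5e-12, without it.

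Glb1, the β-galactosidase that acts on GM1 ganglioside and keratan sulfate, gave the largest glycosidase difference with Nlrp3 at 6m, 12m and 12m Mxo4. Its levels were 84, 75.2, 77, 74 and 79.7 in wild-type and 143, 159 and 168 in APP/PS1 at 6m. They were 80, 88.1 and 85.2 in wild-type and 228, 234, 184, 170.1 and 241 in APP/PS1 at 12m, in CPM. The genotypes did not overlap, and the differences were 1.0 ± 0.16 and 1.34 ± 0.17 (adjusted p = 4.6e-05 and 1.2e-07). At 12m Mxo4 it stood at 90.5, 82.5 and 88.2 in wild-type and 75.6, 222, 233 and 194 in APP/PS1, with a difference of 1.07 ± 0.18 (adjusted p = 6.6e-05), or 1.36, adjusted p = 3.5e-13 without replicate 56. Hexa, which splits GM2 ganglioside together with the Gm2a activator, was at 913, 851, 780.0, 872 and 885 in wild-type and 1629, 1752 and 1746 in APP/PS1 at 6m, without overlap and with a difference of 0.99 ± 0.14 (adjusted p = 8.3e-06). Without Nlrp3 at 12m Mxo4 it was at 1056, 947 and 1029 in NLRP3-/- and 2101, 2342 and 2414 in APP/PS1.NLRP3-/-, again without overlap, and differed by 1.17 ± 0.17 (adjusted p = 5e-06).

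Gla, the α-galactosidase A lost in Fabry disease, had the lowest level of the class and, at 6m and 12m, the largest difference without Nlrp3. It stood at 7.04, 9.17, 8.2 and 8.26 in NLRP3-/- and 25.1, 12.6, 17.9, 32.1 and 20.6 in APP/PS1.NLRP3-/- libraries at 6m. It stood at 9.58, 2.81, 6.52 and 8.01 in NLRP3-/- and 26.3, 22.8, 26.2 and 15.4 in APP/PS1.NLRP3-/- at 12m, in CPM. No transgenic value fell within the range of the others, and the differences were 1.41 ± 0.23 and 1.63 ± 0.25 (adjusted p = 2.7e-05 and 1.1e-05). With Nlrp3 it differed by 0.60 ± 0.24 at 6m, which was not called (adjusted p = 0.18), and by 1.19 ± 0.25 at 12m. At 12m Mxo4 without Nlrp3 it differed by 1.10, where Hexa and Glb1 differed by 1.17 each. At 12m Mxo4 with Nlrp3, leaving out replicate 56 gave 1.15 for Hexa, 1.16 for Gla, 0.83 for Gaa and 1.09 for Naglu. The remaining glycosidases moved less evenly. Gaa, which degrades glycogen, gave 0.74, 0.77, 0.65 with Nlrp3 and 0.60, 0.72 and 0.77 without it in the order 6m, 12m and 12m Mxo4. Naglu, which acts on heparan sulfate, gave 0.81, 1.25, 0.84 with Nlrp3 and 0.95, 0.95 and 0.83 without it. Man2b1, an α-mannosidase of glycoproteins, was called in 4 of the 6, with 0.82, 0.53, 0.33 with Nlrp3 and 0.67, 0.76 and 0.52 without it, and was not called at 12m Mxo4 in either (adjusted p = 0.27 and 0.061). Without replicate 56 it was called there with Nlrp3, at 0.50 (adjusted p = 0.022). Idua, the α-iduronidase of dermatan and heparan sulfate, was called at 12m without Nlrp3, at 0.37 ± 0.099 (adjusted p = 0.011), with 0.004 at 12m with Nlrp3. Calls ended by leaving out 1 library were those of Man2b1 at 12m with Nlrp3 (replicate 34 or 40, adjusted p up to 0.089), Gla at 12m Mxo4 with Nlrp3 (replicate 57, 58, 60 or 61, adjusted p up to 0.1) and the same without it (replicate 50 or 53, adjusted p up to 0.056), and Idua (replicate 45, 46 or 48, adjusted p up to 0.072).

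The 3 sulfatases, which remove sulfate groups from glycosaminoglycans, did not move together. Galns, which acts on keratan sulfate and chondroitin 6-sulfate, was higher in all 6 comparisons from 6m on, whereas Arsb, which acts on dermatan sulfate, and Ids, the iduronate 2-sulfatase, were called in none. Galns stood at 13.9, 12.1, 13.5, 14.1 and 14.1 in wild-type and 22.8, 22.3 and 21.6 in APP/PS1 at 6m. It stood at 11.7, 15.5 and 14 in wild-type and 32, 33.5, 28.3, 33.8 and 33.6 in APP/PS1 at 12m, in CPM. Without Nlrp3 it stood at 17.4, 9.11, 12.9 and 13.8 in NLRP3-/- and 32.9, 19.1, 28, 21.7 and 25.2 in APP/PS1.NLRP3-/- at 6m. It stood at 15.7, 11.2, 10.5 and 14.5 in NLRP3-/- and 31.6, 36.9, 36.3 and 19 in APP/PS1.NLRP3-/- at 12m. The transgenic libraries lay above the others in each of these 4 pairs. The differences were 0.72 ± 0.19, 1.23 ± 0.21, 0.94 ± 0.19 and 1.23 ± 0.20 (adjusted p = 0.027, 1.3e-05, 0.00037 and 2.3e-05).

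At 12m Mxo4 Galns stood at 14.8, 15.6 and 13.6 in wild-type and 13, 37.6, 37.7 and 36.6 in APP/PS1. It stood at 15, 15.7 and 13.9 in NLRP3-/- and 30.7, 30.6 and 36.6 in APP/PS1.NLRP3-/- libraries, in CPM. The first pair overlapped through replicate 56 and the second did not. The differences were 1.09 ± 0.21 (adjusted p = 0.00068; 1.37, adjusted p = 5.1e-08 without replicate 56) and 1.13 ± 0.22 (adjusted p = 0.00055). The 6m call with Nlrp3 was lost without 1 of several libraries (replicate 17, 22, 23 or 24, adjusted p up to 0.1). Ids ranged from -0.31 to 0.083 over the 6 comparisons.

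Arsb varied more between libraries than any other member in wild-type mice, and it did so in a pattern of high and low values rather than by group. Across the 30 fitted libraries with Nlrp3 it ranged from 145 to 1686 CPM, with 17 libraries at or below 529 CPM, 13 at or above 887 CPM and none between. Across the 31 libraries without Nlrp3 it ranged from 263 to 571 CPM. The SD of its log2 level was 1.04 with Nlrp3 and 0.25 without it. In wild-type 4m libraries the values were 213, 1686, 209 and 1126, and in wild-type 6m libraries 256, 145, 178, 887 and 915, so that high and low values stood side by side within groups. In NLRP3-/- 4m libraries they were 423, 374, 419.8 and 382. Arsb was not called in any of the 30 comparisons. It lies on chromosome 13 at 93771630 to 93943016 on the plus strand (mm10), and 39.9% of its exon bases are shared with the antisense genes Gm26527 and Gm47210. Whether the counts used strand is not given in the sources used here, so reads of Arsb and of these genes may not be told apart.

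**Figure D3:**
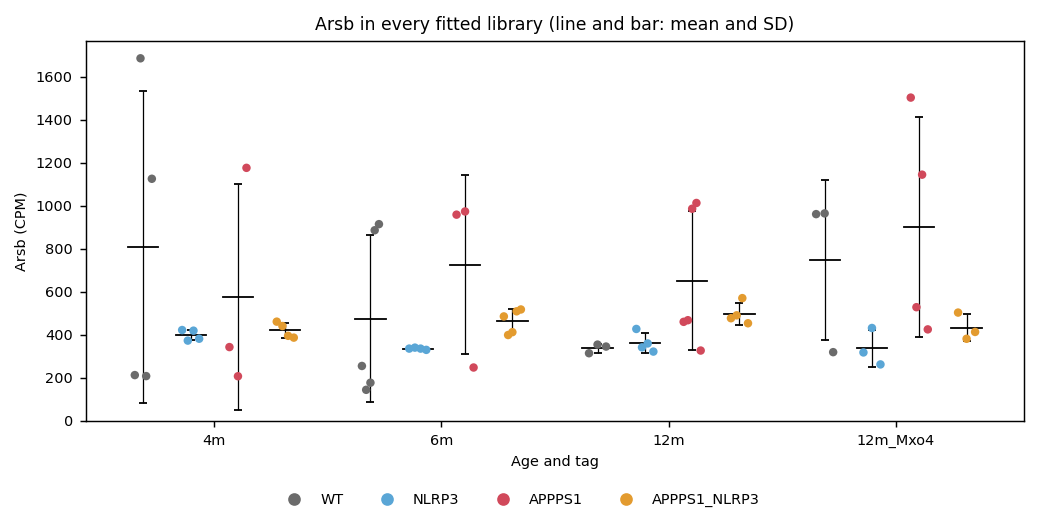
Level of Arsb (y axis, CPM) in every fitted library by group. Libraries with Nlrp3 fall into values at or below 529 and at or above 887 CPM within the same groups, while those without Nlrp3 lie between 263 and 571 CPM.

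Among the 7 lipid-handling members, Npc2, Lipa and Gm2a were higher in all 6 comparisons from 6m on, Asah1 in 1, and Npc1, Psap and Smpd1 in none. The class median was 0.24, 0.36 and 0.20 with Nlrp3 and 0.31, 0.28 and 0.19 without it, below that of the glycosidases at each time. The difference between class medians was not tested.

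Npc2 and Npc1 act in turn to carry cholesterol out of the lysosome, the first as a soluble protein of the lumen and the second as a membrane transporter, and their transcripts parted. Npc2 stood at 325, 352 and 328 in wild-type and 1054, 854, 661, 760.2 and 1409 in APP/PS1 12m libraries, in CPM, without overlap. It differed by 1.51 ± 0.18 (adjusted p = 3.3e-08, 2.84-fold). Npc1 stood at 116, 107 and 111 in wild-type and 91.2, 111, 112, 101 and 110.2 in APP/PS1 in the same libraries, with overlap, and differed by -0.10 ± 0.095 (adjusted p = 0.49). Over the 6 comparisons Npc1 ranged from -0.22 to 0.017. Without Nlrp3, Npc2 stood at 383, 457, 331 and 357 in NLRP3-/- and 944, 702, 864 and 661 in APP/PS1.NLRP3-/- at 12m and differed by 1.05 ± 0.17 (adjusted p = 1.6e-05), again without overlap.

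At 6m Npc2 stood at 343, 295, 298, 332 and 297 in wild-type and 535, 529 and 571 in APP/PS1, and without Nlrp3 at 316, 293, 313 and 305 in NLRP3-/- and 648, 527, 653, 613 and 836 in APP/PS1.NLRP3-/-, in CPM. Neither pair overlapped, and the differences were 0.80 ± 0.17 and 1.09 ± 0.16 (adjusted p = 0.0021 and 3.1e-06). At 12m Mxo4 it stood at 368, 387 and 441 in wild-type and 342, 805, 872 and 864 in APP/PS1, with a difference of 0.86 ± 0.18 (adjusted p = 0.0014; 1.12, adjusted p = 4.5e-08 without replicate 56). Without Nlrp3 it stood at 409, 382 and 379.7 in NLRP3-/- and 812, 861 and 864 in APP/PS1.NLRP3-/-, with 1.10 ± 0.19 (adjusted p = 8.9e-05).

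Lipa, the acid lipase that frees cholesterol and fatty acids from lipoprotein esters, stood at 124, 117 and 139 in NLRP3-/- and 195, 216 and 224 in APP/PS1.NLRP3-/- libraries at 12m Mxo4, in CPM. The transgenic values were all higher, and the difference was 0.73 ± 0.12 (adjusted p = 6.3e-05). Over the 6 comparisons Lipa gave 0.39, 0.75, 0.38 with Nlrp3 and 0.45, 0.68 and 0.73 without it. Gm2a, the activator that lifts GM2 ganglioside out of the membrane for Hexa, gave 0.54, 0.81, 0.60 with Nlrp3 and 0.78, 0.66 and 0.62 without it. Without replicate 56 the values at 12m Mxo4 with Nlrp3 were 0.54 for Lipa and 0.79 for Gm2a. Asah1, the acid ceramidase, was called at 12m with Nlrp3, at 0.36 ± 0.12 (adjusted p = 0.031), and gave 0.28 without it. Psap, which had the highest level per kilobase of the set, gave 0.24, 0.17, 0.20 with Nlrp3 and 0.20, 0.045 and 0.19 without it, and Smpd1, the acid sphingomyelinase, 0.039, 0.017, -0.083 with Nlrp3 and -0.09, 0.00044 and -0.10 without it. Calls ended by leaving out 1 library were those of Lipa at 6m (replicate 17, 18, 23 or 24, adjusted p up to 0.19) and 12m Mxo4 (replicate 57, 58, 59, 60, 61 or 62, adjusted p up to 0.21) with Nlrp3. The same held for Gm2a at 6m (replicate 17, 22 or 24, adjusted p up to 0.086) and 12m Mxo4 (replicate 60, adjusted p up to 0.071) with Nlrp3 and at 12m Mxo4 without it (replicate 53, adjusted p up to 0.059), and Asah1 (replicate 34, 39 or 41, adjusted p up to 0.22).

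The 4 genes known from the neuronal ceroid lipofuscinoses, lysosomal storage diseases of neurons in humans, had class medians of 0.38, 0.47 and 0.36 with Nlrp3 and 0.49, 0.55 and 0.51 without it. Ppt1, the thioesterase that removes palmitate from proteins, was called in all 6 comparisons, Grn in 5, the tripeptidyl peptidase Tpp1 in 4 and the membrane protein Cln3 in 2. Ppt1 stood at 568, 589.8 and 550.0 in wild-type and 1034, 943, 785, 840.2 and 1511 in APP/PS1 12m libraries, in CPM, without overlap, and differed by 0.88 ± 0.13 (adjusted p = 1.1e-06). Without Nlrp3 it stood at 558, 469, 443 and 525 in NLRP3-/- and 727, 676, 705, 658 and 1006 in APP/PS1.NLRP3-/- at 6m. It stood at 640.4, 467, 488 and 539 in NLRP3-/- and 972, 929, 856 and 741 in APP/PS1.NLRP3-/- at 12m. The groups were apart at both times, with differences of 0.58 ± 0.12 and 0.67 ± 0.12 (adjusted p = 0.00041 and 0.00011). At 12m Mxo4 the values were 576, 521 and 566 in wild-type and 591, 872, 928 and 855 in APP/PS1. Without Nlrp3 they were 671, 567 and 596 in NLRP3-/- and 937, 917 and 1044 in APP/PS1.NLRP3-/-, with differences of 0.58 ± 0.13 and 0.61 ± 0.14 (adjusted p = 0.0039 and 0.0037).

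Grn, the precursor of the granulins, stood at 981, 977, 1231, 1647 and 1640.1 in wild-type and 2228, 2253 and 1798 in APP/PS1 at 6m, in CPM, without overlap, and differed by 0.75 ± 0.16 (adjusted p = 0.0022). Without Nlrp3 it stood at 1246, 1483, 1426 and 1177 in NLRP3-/- and 2234, 1893, 1915, 2108 and 1949 in APP/PS1.NLRP3-/- at 6m. It stood at 1361, 1215, 1485 and 1076 in NLRP3-/- and 1979, 1503, 2879 and 1919 in APP/PS1.NLRP3-/- at 12m and at 1248, 1665 and 1341 in NLRP3-/- and 1969.8, 1953 and 2346 in APP/PS1.NLRP3-/- at 12m Mxo4. All transgenic values were above the others at each time, and the differences were 0.64 ± 0.15, 0.75 ± 0.16 and 0.70 ± 0.18 (adjusted p = 0.0024, 0.00074 and 0.011). Tpp1 gave 0.29, 0.41, 0.25 with Nlrp3 and 0.40, 0.41 and 0.41 without it and Cln3 0.098, 0.25, 0.12 with Nlrp3 and 0.22, 0.43 and 0.38 without it. At 12m Mxo4 with Nlrp3, leaving out replicate 56 gave 0.74 for Ppt1 and calls of Grn at 0.64 and Tpp1 at 0.35 (adjusted p = 0.0045 for both). Calls ended by leaving out 1 library were those of Ppt1 at 6m with Nlrp3 (replicate 18, 23 or 24, adjusted p up to 0.14). The same held for Grn at 6m (replicate 23, adjusted p up to 0.063) and 12m (replicate 34 or 40, adjusted p up to 0.18) with Nlrp3 and at 12m Mxo4 without it (replicate 50 or 54, adjusted p up to 0.093), and Cln3 at 12m (replicate 43, adjusted p up to 0.065) and 12m Mxo4 (replicate 50, 52, 53, 54 or 55, adjusted p up to 0.29) without Nlrp3.

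Of the 6 membrane proteins, Cd63, Cd68 and Lamp1 were higher in all 6 comparisons, Lamp2 in 5, Scarb2 in 3 and Mcoln1 in none. Cd63, a tetraspanin of late endosomes, lysosomes and exosomes, had the largest difference of the class in each of the 6. It stood at 241, 243, 233 and 245 in wild-type and 275, 322 and 374 in APP/PS1 libraries at 4m. At the later times it stood at 303, 279.8, 244, 285 and 223 in wild-type and 557, 646 and 715 in APP/PS1 at 6m and at 289, 323 and 302 in wild-type and 1999.7, 1110.3, 771, 966 and 1949 in APP/PS1 at 12m, in CPM. The APP/PS1 libraries lay above all wild-type ones at each of these times, and the differences were 0.45 ± 0.25 (not called, adjusted p = 1), 1.25 ± 0.23 (adjusted p = 0.00055) and 2.17 ± 0.26 (adjusted p = 4.3e-08, 4.5-fold). Without Nlrp3 the values were 233, 221, 262 and 259.9 in NLRP3-/- and 829, 583, 737, 619 and 1102 in APP/PS1.NLRP3-/- at 6m. They were 309, 250.1, 255 and 292 in NLRP3-/- and 1099.7, 953, 939 and 802 in APP/PS1.NLRP3-/- at 12m, with differences of 1.65 ± 0.23 and 1.74 ± 0.24 (adjusted p = 1.6e-06 and 1.1e-06) and no overlap. At 12m Mxo4 they were 327, 304 and 428 in wild-type and 277, 1078, 1136 and 981 in APP/PS1, with 1.33 ± 0.26 (adjusted p = 0.00066; 1.66, adjusted p = 2.2e-09 without replicate 56). Without Nlrp3 they were 323, 249.5 and 358 in NLRP3-/- and 1009, 1083 and 1115 in APP/PS1.NLRP3-/-, with 1.74 ± 0.27 (adjusted p = 2.2e-05).

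Cd68, a lysosomal glycoprotein widely used as a marker of phagocytic activity, gave 0.77, 1.45, 0.98 with Nlrp3 and 1.09, 1.19 and 1.11 without it in the order 6m, 12m and 12m Mxo4. Lamp1 and Lamp2, which line the inner face of the lysosomal membrane, gave 0.48, 0.78, 0.53 with Nlrp3 and 0.65, 0.66 and 0.59 without it and 0.52, 0.91, 0.43 with Nlrp3 and 0.53, 0.62 and 0.56 without it. At 12m Mxo4 with Nlrp3, leaving out replicate 56 gave 1.24 for Cd68, 0.70 for Lamp1 and, now called, 0.60 for Lamp2 (adjusted p = 0.002). Scarb2, the receptor that carries glucocerebrosidase to the lysosome, was called at 12m with Nlrp3 (0.39) and at 6m and 12m without it (0.31 and 0.46). Mcoln1, the calcium channel TRPML1, ranged from 0.0068 to 0.30 and stood at 96, 126 and 108 in wild-type and 116, 126, 133, 107 and 80.5 in APP/PS1 12m libraries, in CPM, with overlap. Lamp1, with 4 CLEAR core sites in the window printed above, was called in all 6 comparisons and Mcoln1, with 2, in none. Of the 9 members with a site, 7 were called at 12m with Nlrp3, and of the 22 with a window and no site, 16 were. Calls ended by leaving out 1 library were those of Cd68 (replicate 24, adjusted p up to 0.068) and Lamp2 (replicate 17, 23 or 24, adjusted p up to 0.18) at 6m with Nlrp3, Lamp2 at 12m Mxo4 without it (replicate 50, 54 or 55, adjusted p up to 0.13) and Scarb2 at 6m without it (replicate 26, 27, 30 or 31, adjusted p up to 0.083).

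The regulator Tfeb was not called in any comparison. It stood at 25.7, 35.7 and 28.9 in wild-type and 31, 32, 26, 26.5 and 23.4 in APP/PS1 12m libraries. In the absence of Nlrp3 its level was 31.7, 36.5, 25.7 and 28.5 in NLRP3-/- and 28.2, 20.8, 28 and 31.6 in APP/PS1.NLRP3-/- 12m libraries, in CPM, with overlap in both pairs. Its differences were below 0 in all 6 comparisons, from -0.33 to -0.12, and the smallest adjusted p among them was 0.17.

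No v-ATPase subunit was called in all 6 comparisons with every library in the fit. Atp6v1b2 was called in 5, and without replicate 56 also in the other, APP/PS1 minus wild-type at 12m Mxo4, at 0.46 (adjusted p = 0.0017). Of the 8, 1 was higher with Nlrp3 at 6m, 7 at 12m and 2 at 12m Mxo4, and 7, 4 and 4 without it, with class medians of 0.19, 0.50 and 0.25 with Nlrp3 and 0.41, 0.29 and 0.36 without it. Apart from Atp6v0d2, differences stayed at or below 0.83 on the log2 scale.

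Atp6v0d2, the inducible form of the d subunit in the V0 sector, was near 0 without the transgenes. In wild-type 12m libraries it stood at 0.386, 0 and 0.334 CPM, from 14 counts in all, and in APP/PS1 12m libraries at 25.3, 15.4, 7.25, 0.519 and 31.1 CPM, from 941 counts. The groups were just apart, since the fourth APP/PS1 value, in replicate 38, lay close to the wild-type ones. The difference was 5.98 ± 1.04 (adjusted p = 2.6e-05). Without Nlrp3 the values were 0.29, 0, 0.212 and 0.0548 in NLRP3-/- and 14.7, 14, 21.2 and 8.17 in APP/PS1.NLRP3-/- at 12m, from 11 and 1133 counts, and the difference was 6.26 ± 1.03 (adjusted p = 3.2e-05). At 6m they were 0.284, 0.191, 0.6, 0.123 and 0.303 in wild-type and 3.23, 1.1 and 1.45 in APP/PS1, which was not called (2.74 ± 0.85, adjusted p = 0.063). Without Nlrp3 they were 0, 0, 0.0443 and 0.373 in NLRP3-/- and 1.54, 0.866, 1.92, 1.44 and 3.66 in APP/PS1.NLRP3-/-, which was (4.05 ± 1.02, adjusted p = 0.0064). At 12m Mxo4 they were 0.602, 0.472 and 0.703 in wild-type and 0, 30.1, 16.7 and 11.1 in APP/PS1, with replicate 56 at 0. Without Nlrp3 they were 0, 0.153 and 0.0663 in NLRP3-/- and 19.8, 28.4 and 26 in APP/PS1.NLRP3-/-. The differences there were 4.64 ± 0.95 (adjusted p = 0.0013; 5.12, adjusted p = 2e-06 without replicate 56) and 8.10 ± 1.25 (adjusted p = 1.8e-05). With 4 counts in all in the NLRP3-/- 12m Mxo4 group, the last value has little behind it on the lower side.

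Atp6v1b2, a B subunit of the V1 sector that splits ATP together with the A subunit, stood at 194, 173, 181, 175 and 164 in wild-type and 233, 241 and 265 in APP/PS1 libraries at 6m. In the absence of Nlrp3 the levels were 199.9, 162, 179 and 215 in NLRP3-/- and 248, 246, 276, 288 and 311 in APP/PS1.NLRP3-/- libraries at 6m, in CPM. The groups did not overlap, and the differences were 0.47 ± 0.11 and 0.53 ± 0.1 (adjusted p = 0.006 and 0.00019). Over the 6 comparisons it gave 0.47, 0.61, 0.32 with Nlrp3 and 0.53, 0.52 and 0.52 without it, and the A subunit Atp6v1a gave 0.37, 0.61, 0.56 with Nlrp3 and 0.57, 0.68 and 0.83 without it. The accessory protein Atp6ap1 gave 0.30, 0.54, 0.28 with Nlrp3 and 0.42, 0.45 and 0.50 without it. At 12m Mxo4 with Nlrp3, leaving out replicate 56 gave 0.72 for Atp6v1a and a call of Atp6ap1 at 0.42 (adjusted p = 0.0015). Atp6v0c, which forms the proton-carrying ring, and Atp6v0d1, the d subunit found in most tissues, were called at 12m with Nlrp3 (0.45 and 0.35) and at 6m without it (0.40 and 0.28), as was the V1 stalk subunit Atp6v1e1 (0.29 and 0.30). Atp6v1h, a regulatory V1 subunit, ranged from -0.06 to 0.21 and was not called. Calls ended by leaving out 1 library were those of Atp6v1b2 at 6m with Nlrp3 (replicate 24, adjusted p up to 0.066), Atp6v1a at 12m Mxo4 with Nlrp3 (replicate 57, 58 or 61, adjusted p up to 0.091). The same held for Atp6v0c, Atp6v0d1 and Atp6v1e1 at 12m with Nlrp3 (replicate 35 or 40, adjusted p up to 0.12; replicate 40, adjusted p up to 0.058; replicate 34, 35, 39, 40 or 41, adjusted p up to 0.33) and at 6m without it (replicate 25, 26, 27, 29, 30, 31 or 33, adjusted p up to 0.099; replicate 26, 27, 30, 31 or 32, adjusted p up to 0.12; replicate 26, 27, 30, 31, 32 or 33, adjusted p up to 0.18).

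Set side by side as the median over the class of each library's log2 level minus the mean of the libraries without transgenes, the glycosidases stood highest of the 3 larger classes at 12m. The lowest, median and highest of the 5 APP/PS1 12m libraries were 0.95, 1.24 and 1.39 for the glycosidases, 0.11, 0.34 and 0.87 for the lipid-handling members and 0.26, 0.46 and 0.83 for the v-ATPase subunits. In the 3 wild-type 12m libraries they were -0.056, 0.017 and 0.16, -0.034, -0.014 and 0.067 and -0.039, 0.11 and 0.13. In the 4 APP/PS1.NLRP3-/- 12m libraries they were 0.67, 1.10 and 1.28, 0.17, 0.39 and 0.51 and 0.27, 0.36 and 0.46. In the 4 NLRP3-/- 12m libraries they were -0.16, -0.039 and 0.10, -0.11, 0.088 and 0.38 and -0.04, 0.0031 and 0.041. With Nlrp3 all 3 classes were apart between the genotypes, and without it the lipid-handling class overlapped. At 4m the glycosidases reached at most 0.042 in wild-type and at least 0.14 in APP/PS1 libraries. They reached at most 0.066 in NLRP3-/- and at least 0.090 in APP/PS1.NLRP3-/- 4m libraries. The lipid-handling and v-ATPase classes overlapped at 4m in both pairs. These class medians carry no test.

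**Figure D4:**
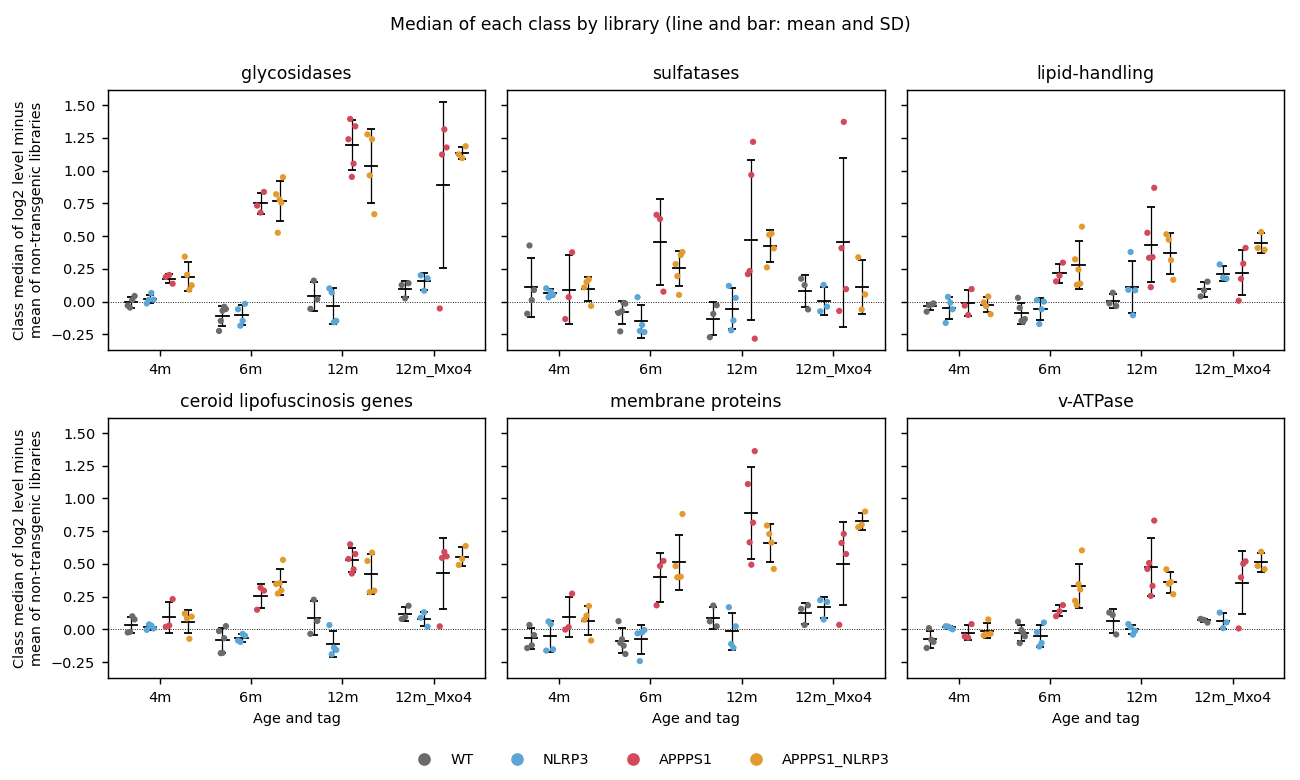
Class median of the log2 level minus the mean of the non-transgenic libraries (y axis) in every fitted library by group (x axis), for 6 role classes. Glycosidases reach 0.95 to 1.39 in the APP/PS1 12m libraries, lipid-handling members 0.11 to 0.87 and v-ATPase subunits 0.26 to 0.83.

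The differences with and without Nlrp3 were compared gene by gene. Both comparisons at a time called 17 members at 6m, 23 at 12m and 16 at 12m Mxo4. The share of all genes called in both was not counted. The 4 groups of each time are separate libraries. At 12m both groups with Nlrp3 were all female and both without it all male by their transcripts. Loss of Nlrp3 and sex therefore cannot be told apart in what follows for 12m. Over 36 members, Atp6v0d2 left out for its low counts, the median absolute gap between both differences was 0.13, 0.14 and 0.12 on the log2 scale. Pearson's r over these members, which share libraries and are not independent, was 0.88, 0.90 and 0.97. The test of the gap itself, transgene by Nlrp3, called no member at 4m, 6m, 12m or 12m Mxo4, where edgeR called 0%, 0.0151%, 0% and 0% of all genes. Unadjusted, 0, 3, 3 and 2 members had a p under 0.05, and DESeq2 called 0 in each. No member was called at 12m Mxo4 without replicate 56 either. The smallest p belonged to Mcoln1 at 0.29, Cd68 at -0.34 and Atp6v0d2 at -2.16 (adjusted p = 1 for each) at 4m. It belonged to Atp6v0c at 0.58, Gla at 0.81 and Atp6v0d1 at 0.26 (adjusted p from 0.42 to 0.66) at 6m, Atp6v0d1 at -0.39, Idua at 0.36 and Ids at 0.40 (adjusted p from 0.22 to 0.47) at 12m and Atp6v0d2 at 3.47, Lipa at 0.35 and Mcoln1 at 0.27 (adjusted p = 1 for each) at 12m Mxo4. At 12m Npc2 stood at 1.51 ± 0.18 with Nlrp3 and 1.05 ± 0.17 without it (gap -0.46 ± 0.24, adjusted p = 0.52), and Gla at 1.19 ± 0.25 and 1.63 ± 0.25 (gap 0.44 ± 0.35, adjusted p = 0.72). A gap that misses the threshold does not show that both differences are alike.

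**Figure D5:**
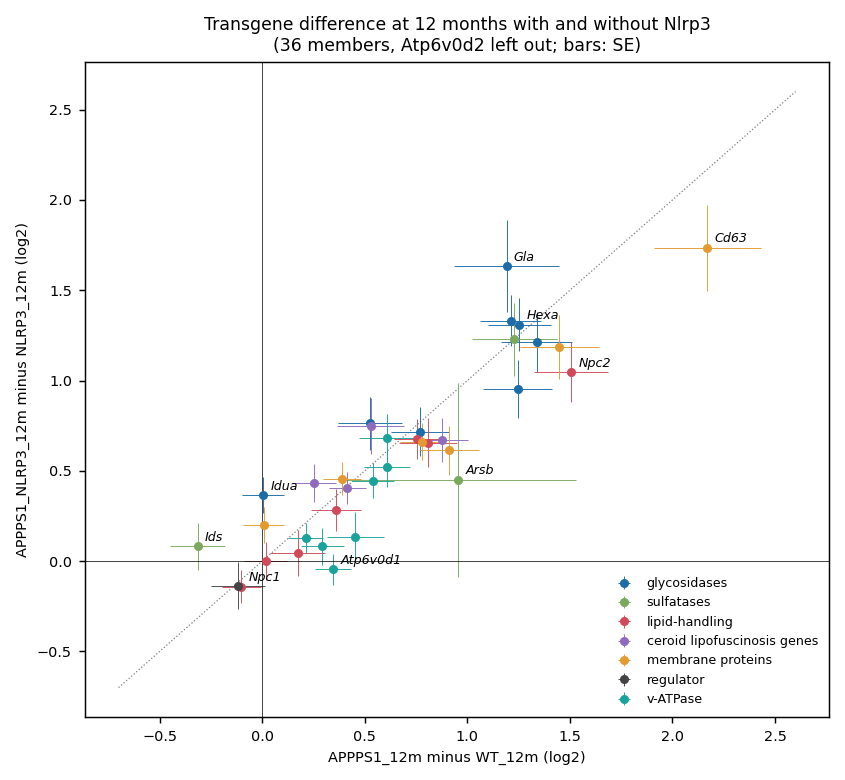
Log2 difference between transgenic and non-transgenic libraries at 12m for 36 members, with Nlrp3 (x axis) and without it (y axis), with SE bars and the line of equality. Cd63 lies farthest out at 2.17 and 1.74, and Npc1 and Tfeb lie near 0 on both axes. The libraries of the x axis are all female and those of the y axis all male.

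From 4m to 12m most members rose in both transgenic genotypes, and none was called in the genotypes without the transgenes. Between 12m and 4m, 28 members were higher and 1 lower in APP/PS1 libraries, where 13.4% of all genes were called higher and 8.94% lower. In APP/PS1.NLRP3-/- libraries 23 were higher and none lower, where 7.04% of all genes were higher. In wild-type and NLRP3-/- libraries edgeR called none, beside 0.0453% and 0.453% of all genes in either direction, with 2 and 3 members at an unadjusted p under 0.05. DESeq2 called 0 and 1. The smallest p there belonged to Gm2a at 0.30, Arsb at -1.25 and Atp6v1b2 at 0.22 (adjusted p = 0.95 for each) in wild-type and to Npc1 at 0.32, Psap at 0.38 and Lamp1 at 0.21 (adjusted p from 0.092 to 0.33) in NLRP3-/- libraries, where Npc1 was called without replicate 42. By class, APP/PS1 libraries had 7 of 8 glycosidases, 4 of 7 lipid-handling members and 8 of 8 v-ATPase subunits higher, and APP/PS1.NLRP3-/- libraries 6, 4 and 4. The 4m groups were all female by their transcripts, as were wild-type and APP/PS1 12m. NLRP3-/- and APP/PS1.NLRP3-/- 12m were all male, so that age and sex cannot be told apart in both genotypes that lack Nlrp3.

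Hexa rose from 1056, 1002 and 1191 to 2300.2, 2554, 1839, 2019 and 2772 CPM in APP/PS1 libraries, by 1.08 ± 0.15 (adjusted p = 5.9e-07). Npc2 rose from 315, 313 and 359 to 1054, 854, 661, 760.2 and 1409 CPM, by 1.52 ± 0.18 (adjusted p = 4.9e-08). Atp6v1b2 rose from 177, 172 and 190.4 to 265, 271, 254, 275 and 447 CPM, by 0.74 ± 0.11 (adjusted p = 1.5e-06). Galns rose from 16.9, 18.8 and 18.6 CPM at 4m by 0.83 ± 0.20, Ppt1 from 509.7, 526 and 634 by 0.86 ± 0.13 and Gla from 18, 12.4 and 10.5 to 38.1, 33.5, 23.3, 38.6 and 43.6 CPM by 1.39 ± 0.26 (adjusted p = 0.0017, 1.5e-06 and 4.6e-05). Cd63 rose by 2.04 ± 0.26 and Atp6v0d2, from 0.176, 0.331 and 0.574 CPM at 4m, by 5.38 ± 0.99 (adjusted p = 1.5e-07 and 5.2e-05). Among these, the ages overlapped for Atp6v0d2 only. Lamp1 in APP/PS1.NLRP3-/- libraries rose from 1373, 1431, 1393 and 1259 to 2578, 2349, 2456 and 1978 CPM, by 0.78 ± 0.10 (adjusted p = 6.8e-07).

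In APP/PS1.NLRP3-/- libraries Gusb rose from 341, 327, 349 and 306 CPM at 4m by 1.13 ± 0.14 and Gla from 13, 8.34, 6.5 and 9.78 by 1.29 ± 0.24 (adjusted p = 3.4e-07 and 0.00015), to the 12m values given above. Npc2 rose from 346, 328, 345 and 314 by 1.25 ± 0.17, Galns from 15.4, 15.9, 16.1 and 17.9 by 0.93 ± 0.19 and Ppt1 from 612, 594, 579 and 515 by 0.60 ± 0.12 (adjusted p = 9.2e-07, 0.00054 and 0.0004). Cd63 rose from 269.8, 277, 308 and 239.7 by 1.79 ± 0.24 and Atp6v0d2 from 0.374, 0.232, 0.504 and 0.255 by 5.40 ± 0.88 (adjusted p = 9.4e-07 and 2.6e-05). The ages did not overlap for any of these 7. Ids in APP/PS1 libraries was the member called lower, at 168, 189 and 202 in APP/PS1 4m and 125, 157, 174, 161 and 111 in APP/PS1 12m, with overlap, by -0.35 ± 0.13 (adjusted p = 0.046), a call that ended without 1 of several libraries (replicate 3, 6, 35 or 41, adjusted p up to 0.2). Of the calls, those of Man2b1 (replicate 2, 3, 6, 35, 36 or 38, adjusted p up to 0.11), Atp6v0c (replicate 6, adjusted p up to 0.18) and Atp6v1h (replicate 2, 3, 6 or 41, adjusted p up to 0.22) in APP/PS1, and of Psap (replicate 11 or 43, adjusted p up to 0.08), Cln3 (replicate 11, 13, 43 or 46, adjusted p up to 0.22) and Lamp2 (replicate 11, 13, 14, 43, 44, 46 or 49, adjusted p up to 0.11) in APP/PS1.NLRP3-/- ended likewise.

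The test of whether the transgene difference itself grew from 4m to 12m called 17 members higher with Nlrp3, where 3.83% of all genes were, and 11 without it, where 0.981% were. With Nlrp3 the smallest adjusted p belonged to Npc2, at 1.38 ± 0.25 (adjusted p = 0.0014), beside Cd63 at 1.72 ± 0.35 (adjusted p = 0.0024) and Hexa at 1.01 ± 0.22 (adjusted p = 0.0033). Without Nlrp3 it belonged to Gusb, at 1.09 ± 0.20 (adjusted p = 0.0046), beside Cd68 at 1.16 ± 0.25 (adjusted p = 0.012). In the test without Nlrp3 the 4m groups were all female and the 12m groups all male, so age and sex cannot be told apart. The 17 included 4 v-ATPase members, Atp6v0c, Atp6v0d1, Atp6v1b2 and Atp6ap1, and the 11 included Atp6v0d2 alone of that class. The first count fell to 11 without wild-type replicate 34, and the second to 4 without replicate 43 or 46, to 5 without 14 or 47 and to 7 without 10 or 48. When the fit also held the first title number, 3 and 3 members were called, and within libraries of second title number 1 alone 2 and 5. Of the calls, 1 with Nlrp3, and 2 without it, held in every setting and with each library left out.

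Few members were called for loss of Nlrp3 by itself. In NLRP3-/- minus wild-type libraries edgeR called no member at 4m, 6m or 12m Mxo4, beside 0.367%, 0.443% and 0.0956% of all genes, with 3, 2 and 1 members at an unadjusted p under 0.05, and DESeq2 called 0. At 12m it called Gla lower, where 1.21% of all genes were. In APP/PS1.NLRP3-/- minus APP/PS1 libraries it called none at 4m, 6m and 12m Mxo4, beside 0.206%, 0.423% and 0.277% of all genes, with 2, 7 and 2 members at an unadjusted p under 0.05 and 0, 1 and 0 called by DESeq2. At 12m Mxo4 none was called without replicate 56 either, where Gm2a gave 0.18, Gaa 0.19 and Atp6ap1 0.058. At 12m it called Ids higher and Lamp2 lower, beside 2.4% and 3.52% of all genes. Where none was called, the 3 members with the smallest p were, without the transgenes, Gla at -0.79, Mcoln1 at -0.24 and Gm2a at 0.32 (adjusted p from 0.18 to 0.44) at 4m. They were Gm2a at 0.28, Atp6v0c at -0.26 and Gla at -0.45 (adjusted p from 0.43 to 0.54) at 6m and Gm2a at 0.38, Atp6v0d2 at -2.89 and Arsb at -1.15 (adjusted p from 0.72 to 1) at 12m Mxo4. With the transgenes they were Lipa at -0.26, Npc1 at -0.21 and Gla at -0.52 (adjusted p from 0.85 to 0.99) at 4m. They were Gm2a at 0.53, Atp6v0d1 at 0.26 and Atp6v1a at 0.38 (adjusted p from 0.073 to 0.35) at 6m and Gaa at 0.40, Gm2a at 0.40 and Atp6ap1 at 0.21 (adjusted p from 0.47 to 0.75) at 12m Mxo4. Gm2a was among the 3 in 5 of these 6 lists, above 0 in each, and the last of them rests on replicate 56, without which Glb1, Gusb and Galns came first. At 6m with the transgenes it was at 293, 289.8 and 310.5 CPM in APP/PS1 and 408, 344, 406, 428 and 554 CPM in APP/PS1.NLRP3-/- libraries, 0.53 ± 0.14 apart. Gm2a there was called without replicate 28.

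Gla stood at 13.1, 16.1 and 16.3 in wild-type and 9.58, 2.81, 6.52 and 8.01 CPM in NLRP3-/- 12m libraries, without overlap, and differed by -1.06 ± 0.27 (adjusted p = 0.029). Ids stood at 125, 157, 174, 161 and 111 in APP/PS1 and 180.4, 263, 178 and 258 in APP/PS1.NLRP3-/- 12m libraries, without overlap, and differed by 0.59 ± 0.12 (adjusted p = 0.0031). Lamp2 stood at 2761, 1694, 1482, 2049.5 and 3269 and 1760.3, 1766, 1541 and 1449 in the same libraries, with overlap, and differed by -0.47 ± 0.13 (adjusted p = 0.024). Each of these 3 genes lies on the X chromosome, as do 4 of the 37 members in all, and in both comparisons the libraries with Nlrp3 were female and those without it male by their transcripts. With sex as a further term in the fit, which takes its sex difference from other groups, Gla differed by -0.91 with adjusted p = 0.14, Ids by 0.54 with adjusted p = 0.064 and Lamp2 by -0.25 with adjusted p = 0.44. At 4m, where all libraries were female, Gla stood at 13.2, 9.89, 15.3 and 14.5 CPM in wild-type libraries. In NLRP3-/- 4m libraries it stood at 6.54, 9.75, 8.42 and 5.61 CPM, without overlap but not called. At 6m these genotypes overlapped. The cause of the Gla difference was not tested. The Gla call ended without 1 of several libraries (replicate 39, 40, 45, 47 or 48, adjusted p up to 0.16), as did that of Lamp2 (replicate 35, 41, 44 or 49, adjusted p up to 0.12). The count of 2 rose to 7 without APP/PS1 replicate 37. Within libraries of either second title number alone the Gla comparison, which then holds 1 wild-type or 1 NLRP3-/- library, called no member, and the other called 0 and 8. In both comparisons 2 of 5 endothelial markers were called lower. Their summed level was 220 to 353 CPM in wild-type and 69.5 to 153 CPM in NLRP3-/- 12m, and 186 to 263 CPM in APP/PS1 and 79.3 to 139 CPM in APP/PS1.NLRP3-/- 12m libraries. At 4m the summed oligodendrocyte markers were 36.9 to 113 CPM in wild-type and 206 to 484 CPM in NLRP3-/-, and those of border-associated macrophages 323 to 603 and 612 to 953 CPM, with none called in either list. No marker of these 3 lists was at 0 in all libraries of these groups, and their part in the results was not tested.

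Few members differed between the Mxo4 set and the untagged libraries of the same genotype. Each Mxo4 group held both sexes and each untagged 12m group a single sex, so tag and sex are in part mixed here. Both members called, Gla and Lamp2, are X-linked. Wild-type and APP/PS1.NLRP3-/- mice gave no called member, beside 0.171% and 0.936% of all genes (edgeR; 1 and 4 at an unadjusted p under 0.05, and 0 by DESeq2), and the smallest p belonged to Atp6v0c at 0.42, Npc1 at 0.20 and Arsb at 1.15 (adjusted p from 0.25 to 0.55) and to Gaa at 0.38, Mcoln1 at 0.27 and Ids at -0.31 (adjusted p from 0.19 to 0.33). Gla was higher in the tagged NLRP3-/- libraries, at 12.9, 15.8 and 13.9 against 9.58, 2.81, 6.52 and 8.01 CPM and by 0.97 ± 0.27 (adjusted p = 0.023), where 2.21% of all genes were higher. The call ended without replicate 47, 50, 51 or 55, adjusted p up to 0.13. Lamp2 was lower in the tagged APP/PS1 libraries, at 1133, 1628, 1686 and 1459 against 2761, 1694, 1482, 2049.5 and 3269 CPM and by -0.53 ± 0.13 (adjusted p = 0.013), where 4.13% were lower. That call ended without replicate 41 or 56, adjusted p up to 0.1, and with sex as a term the difference was -0.38 with adjusted p = 0.13. The count of 1 there was 11 without replicate 37, 4 without 36, 2 without 38 or 59 and 0 without 41 or 56.

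Other lysosomal genes, grouped by role and not members of the set, moved in part in the same comparisons. At 12m with Nlrp3, 11 of 23 further hydrolases were higher and 2 lower, 7 of 14 tested v-ATPase subunits higher and 1 lower, 8 of 18 further membrane proteins higher and 3 lower, 4 of 7 sorting genes higher and 1 lower, and 4 of 11 regulators higher and 1 lower, beside 11.5% and 6.88% of all genes. Without Nlrp3 the counts at 12m were 9, 2, 6, 4 and 4 higher and none lower. Among the hydrolases, the sphingomyelinase-like Smpdl3a rose (1.21 ± 0.22, adjusted p = 3.5e-05) and Sgsh, the sulfamidase of heparan sulfate, fell (-1.16 ± 0.25, adjusted p = 0.00047). Among the v-ATPase subunits, Atp6v0e rose (1.20 ± 0.17, adjusted p = 4.3e-07) and Atp6v0a2 fell (-0.60 ± 0.15, adjusted p = 0.002). Gnptab, whose product starts the mannose 6-phosphate tag of soluble hydrolases, was higher at 0.98 ± 0.18, adjusted p = 4.3e-05 with Nlrp3 and 1.26 ± 0.17, adjusted p = 8.9e-07 without it. Of the regulators, the small GTPase Rragd was higher at 2.24 ± 0.45, adjusted p = 0.00019 and 1.26 ± 0.41, adjusted p = 0.042, and Tfe3, a relative of Tfeb, was lower with Nlrp3 (-0.33 ± 0.10, adjusted p = 0.015).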

How the data were processed

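RNA was measured in 62 SMART-Seq v4 libraries of CD11b+ mouse cells. The deposited values are raw counts per Ensembl gene, which the authors made with Trimmomatic, TopHat and HTSeq on mm10, per the submitters' processing notes. The versions, gene annotation and strand setting are not given in the sources used here, so overlapping or antisense genes may share reads. Symbols came from GENCODE vM21. Groups came from the sample titles.

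The counts were tested with edgeR 4.0.16 (R 4.3.3, limma 3.58.1) by its two-sided quasi-likelihood F test, with TMM normalisation and filterByExpr (minimum count 10, minimum total 15). The 61 libraries with at least 100000 counts entered 1 fit over the 16 groups with the second title number as a term. The p-values were adjusted by Benjamini-Hochberg over the 19881 genes, and a gene was called at an adjusted p under 0.05. CPM values of members and cell type markers use the TMM library sizes. Those of Nlrp3, Cst7, Xist and the Y-linked genes use the total counts without TMM. A standard error is the size of a difference over the root of its F value. Tested on simulated data for APP/PS1 12m against wild-type 12m with 19464 genes, the fit recovered 90%, 60%, 62% and 86% of genes changed by -2, -1, 1 and 2 on the log2 scale. No 2 libraries were identical. Across 90 pairs of libraries of the same group, the lowest chi-square per degree of freedom was 6.55, above sampling noise.

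Alternatives were DESeq2 1.42.0 as a test and for size factors, no filter, other covariates, libraries of each second title number alone, a term for sex read from the data (female at 100 or more CPM of Xist, male at 50 or more summed CPM of Y-linked genes), and leaving out each library in turn. Members described first in each role class were those called with the largest difference and with the smallest adjusted p in a comparison. The members and gene lists were chosen with earlier results of these data known.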

Additional observations from a re-analysis of the deposited data

Results flagged for a closer look

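In groups of 4 or 5 libraries, a library was picked out by Dixon's criterion. Its distance from the nearest other library then took up most of the range of its group. Chance meets this criterion in about 1 in 20 groups. It was applied to each of the 37 members in each of these groups, so many of the picks below would come up by chance alone. In the APP/PS1 12m Mxo4 group, replicate 56 met the criterion as the lowest of 4 libraries for 9 members. It was also the lowest for others that missed the criterion, such as Gusb and Cd63. Its levels were 964 CPM for Hexa, 763 CPM for Man2b1, 79.0 CPM for Idua, 12.95 CPM for Galns, 342 CPM for Npc2, 126 CPM for Lipa, 249 CPM for Gm2a, 716 CPM for Cd68 and 120 CPM for Atp6v1a. The other 3 libraries of the group lay between 2224 and 2473 CPM for Hexa and between 1678 and 1818 CPM for Cd68. In APP/PS1 12m, replicate 41 met the criterion as the highest of 5 for 3 subunits of the proton pump. It held 118 CPM of Atp6v0d1, 447 CPM of Atp6v1b2 and 180 CPM of Atp6v1h.

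In APP/PS1.NLRP3-/- 6m, replicate 31 was the highest of 5 for Tpp1 at 686 CPM and for Ppt1 at 1006 CPM. In the same group, replicate 30 was the highest for Gaa at 196 CPM, and replicate 28 was the lowest for Atp6v0c at 70.8 CPM. In APP/PS1.NLRP3-/- 12m, replicate 49 was the lowest of 4 for Gusb at 579 CPM and replicate 46 the lowest for Atp6v0d1 at 85.9 CPM. In APP/PS1.NLRP3-/- 4m, replicate 13 was the highest of 4 for Cd68 at 974 CPM.

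Among groups without the transgenes, the highest library of NLRP3-/- 4m was replicate 12 for Galns at 18.2 CPM and replicate 8 for Ids at 218 CPM. In NLRP3-/- 6m, replicate 33 held 0.373 CPM of Atp6v0d2, the highest of 4. In wild-type 4m, the highest of 4 libraries was replicate 5 for Npc1 at 136 CPM, replicate 7 for Lamp1 at 1361 CPM and replicate 4 for Atp6v0c at 100.4 CPM. In wild-type 6m, replicate 18 was the highest of 5 for Ids at 188 CPM.

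The transgene difference at 12m was larger than that at 4m by the interaction test for 17 members with Nlrp3. On the log2 scale the gap was 0.89 for Gusb, 1.01 for Hexa, 1.18 for Gla, 1.04 for Glb1 and 0.99 for Naglu among glycosidases, and 1.09 for the sulfatase Galns. It was 1.38 for Npc2 and 0.54 for Lipa among lipid-handling proteins, and 0.75 for Ppt1. Among membrane proteins it was 1.72 for Cd63, 1.09 for Cd68, 0.66 for Lamp1 and 0.80 for Lamp2. Among pump subunits it was 0.66 for Atp6v0c, 0.52 for Atp6v0d1, 0.52 for Atp6v1b2 and 0.46 for Atp6ap1.

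Without Nlrp3 the interaction was called for 11 members, and age and sex cannot be told apart in it. The gap was 1.09 for Gusb, 1.05 for Hexa, 1.34 for Gla, 0.98 for Glb1 and 0.84 for Naglu, and 1.19 for Galns. It was 0.97 for Npc2, 1.52 for Cd63, 1.16 for Cd68 and 0.57 for Lamp1. For Atp6v0d2 the fitted gap was 6.16, a value that depends on the prior count since its counts were low. They came to 25 in NLRP3-/- 4m, 26 in APP/PS1.NLRP3-/- 4m and 11 in NLRP3-/- 12m libraries.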

How the results depend on the processing

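Each alternative changed 1 choice, and a count is named here only where it moved by over 1.5 times, apart from the ranges over left-out libraries. Among the differences of members named in a comparison, those that lost a call numbered 4 with DESeq2 size factors, 0 with the DESeq2 test, 9 with no filter, 18 with no term for the second title number, 49 with the first title number added, 7 with sex added, 74 and 51 within second title number 1 and 2 alone, and 230 over all left-out libraries, where 262, 264, 249, 248, 217, 258, 160, 199 and 2133 kept direction and call. With APP/PS1 6m replicate 21 kept, 3 lost it and 20 did not. Without the filter on low counts, the members called were 2 in APP/PS1 minus wild-type at 4m, 3, 1 and 2 in NLRP3-/- minus wild-type at 4m, 6m and 12m Mxo4, and 1, 2, 6 and 1 in APP/PS1.NLRP3-/- minus APP/PS1 at 4m, 6m, 12m and 12m Mxo4. They were 1 in wild-type 12m minus 4m, 1 and 5 for the Mxo4 tag in wild-type and APP/PS1, 1 each for transgene by Nlrp3 at 6m and 12m Mxo4, and 18 for transgene by time without Nlrp3. By the DESeq2 test they were 2 in NLRP3-/- minus wild-type at 12m, 1 in APP/PS1.NLRP3-/- minus APP/PS1 at 6m, 1 in NLRP3-/- 12m minus 4m and 4 for the tag in APP/PS1. With the first title number added they were 8 in APP/PS1 minus wild-type at 6m, 0 in NLRP3-/- minus wild-type at 12m, 1 in APP/PS1.NLRP3-/- minus APP/PS1 at 12m, 0 for the tag in APP/PS1, and 3 and 3 for transgene by time with and without Nlrp3. With no term for the second title number, 1 was called in APP/PS1.NLRP3-/- minus APP/PS1 at 12m. With sex as a term they were 0 in NLRP3-/- minus wild-type at 12m, 1 and 0 in APP/PS1.NLRP3-/- minus APP/PS1 at 6m and 12m, and 0 for the tag in APP/PS1.

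In libraries with second title number 1 alone, 6 and 15 members were called in APP/PS1 minus wild-type at 6m and 12m, 0 in NLRP3-/- minus wild-type and in APP/PS1.NLRP3-/- minus APP/PS1 at 12m, 15 in APP/PS1.NLRP3-/- 12m minus 4m, 0 for the tag in NLRP3-/- and APP/PS1, and 2 and 5 for transgene by time with and without Nlrp3. There Arsb in wild-type 12m minus 4m reversed to 0.74. In those with number 2 alone they were 0 in APP/PS1 minus wild-type at 12m Mxo4, 12 in APP/PS1.NLRP3-/- minus NLRP3-/- at 12m, 0 in NLRP3-/- minus wild-type at 12m, 8 and 20 in APP/PS1.NLRP3-/- minus APP/PS1 at 12m and 12m Mxo4, 0 and 24 for the tag in NLRP3-/- and APP/PS1, 8 for transgene by Nlrp3 at 12m Mxo4, and 4 for transgene by time without Nlrp3. Arms with 1 library, here and with number 1, are assumed to vary like the other groups. Replicate 56 is then the single APP/PS1 12m Mxo4 library, and the difference from wild-type reversed to -0.15 for Gusb, -0.091 for Hexa, -0.26 for Glb1, -0.26 for Naglu, -0.19 for Galns, -0.11 for Npc2, -0.24 for Lipa, -0.24 for Cd63, -0.044 for Cd68, -6.42 for Atp6v0d2 and -0.10 for Atp6v1a. The cause was not tested for any of these changes. No other alternative reversed a member named in the comparisons.

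Leaving out 1 library at a time, with the tested genes and the trend of the spread of the full fit, gave 10 to 17, 22 to 29 and 13 to 22 members called in APP/PS1 minus wild-type at 6m, 12m and 12m Mxo4, and 22 to 27, 24 to 26 and 18 to 22 in APP/PS1.NLRP3-/- minus NLRP3-/-. The range was 0 to 1 in NLRP3-/- minus wild-type at 12m, in APP/PS1.NLRP3-/- minus APP/PS1 at 6m, in NLRP3-/- 12m minus 4m and for the tag in NLRP3-/-, and 1 to 7 in APP/PS1.NLRP3-/- minus APP/PS1 at 12m. It was 0 to 11 for the tag in APP/PS1, 25 to 29 and 20 to 23 in 12m minus 4m of APP/PS1 and APP/PS1.NLRP3-/-, and 11 to 21 and 4 to 15 for transgene by time with and without Nlrp3. Only comparisons that hold the group of the left-out library were tested again. No paired analysis was possible because no replicate number is shared between groups. The first title number does recur across groups, its meaning is not given, and its fit is the one above. The label of replicate 56 could not be checked, and where groups hold 3 libraries in a comparison, a difference that was not called is not shown to be absent.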
